A study of Mus musculus with 48 samples.

Results

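Microglia (MG) from the hemisphere opposite a stroke were described against endothelial cells (EC), pericytes (PC) and astrocytes (AC) that were sorted from the same hemisphere. They make up 6 of the 48 libraries of the series and were compared with the 18 contralateral libraries of the other 3 cell types. A gene entered the comparison when its mean was 10 or more normalized counts in at least 1 of the 4 groups, which kept 17470 of the 24973 genes of the table. All 4 groups came from adult male wild-type C57BL/6 mice. A filament closed the right middle cerebral artery for 1 h, 23 h of reperfusion followed, and no other treatment was given. Each library holds RNA from a preparation of 3 to 4 brains, and replicates are numbered 1 to 6 in each cell type. The contralateral hemisphere served the study as the control in place of sham surgery, so these microglia are not microglia of untouched mice. MG were sorted as live cells with low CD45 and with CD11b, while the other 3 types were sorted from cells without CD45: AC by ACSA2, EC by VE-cadherin, and PC by NG2 and PDGFRβ. EC and PC were released from vessel fragments by homogenization and further enzymes, whereas glial cells were kept in the papain flow-through. Both parts were combined before labelling and sorting. The cell type and this difference in release cannot be told apart in the comparisons of MG with EC and PC.

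Microglia are the resident macrophages of the brain parenchyma. They arise from yolk sac progenitors, depend on signals through the colony-stimulating factor 1 receptor, and are specified by the transcription factor PU.1 together with others such as IRF8 and SALL1. They survey the tissue with motile processes, sense nucleotides and chemokines, take up debris and complement-tagged material, and degrade it in lysosomes. EC, PC and AC are by contrast anchored cells that attach to a basement membrane and to each other through junctions.

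The label was checked first with Cd68, a lysosomal glycoprotein of macrophages on chromosome 11 (GRCm38, chr11:69664213-69666153), and Aif1, the actin-binding protein IBA1 on chromosome 17 (chr17:35170991-35176001). Cd68 had 17491, 18898 and 21837 normalized counts as its lowest, median and highest MG value, against 17 to 2637 in the 18 other libraries. Its log2 difference, MG minus the other type, was 5.93 ± 1.03 (SE) for EC, 7.52 ± 1.03 for PC and 6.19 ± 1.03 for AC, with adjusted p of 4.17e-05, 1.28e-06 and 1.74e-05 (limma, Benjamini-Hochberg). All such differences are on the scale of log2(normalized count + 1), which understates those of genes with low values. Aif1 had 3431, 4652 and 4784 normalized counts in MG and 0 to 1446 elsewhere, with log2 differences of 6.23 ± 1.34, 8.65 ± 1.34 and 6.41 ± 1.34. Neither marker overlapped between MG and any other library. The genes of the sort gate, Ptprc (CD45) with 2622 to 5292 and Itgam (CD11b) with 1001 to 2584 normalized counts in MG, stood at 0 to 345 and 0 to 108 in the others; as gate genes they check the sort and are no finding.

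**Figure D1:**
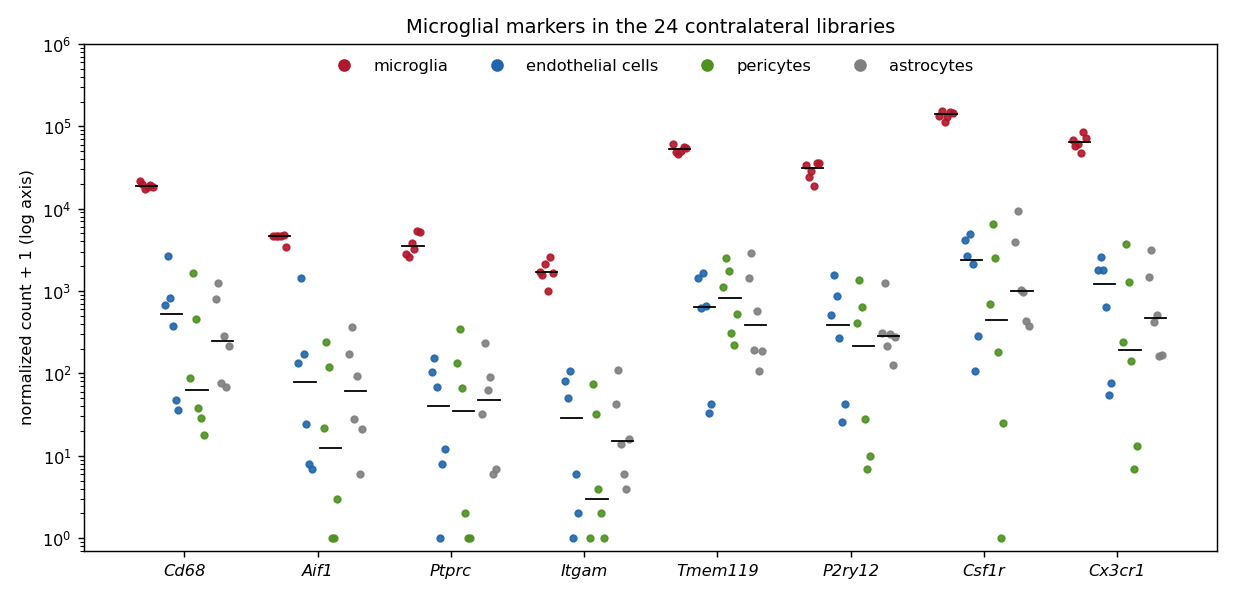
Normalized count + 1 (log axis) of the 2 markers, the 2 genes of the sort gate and 4 homeostatic microglia genes in each of the 24 contralateral libraries, 6 per cell type, with a bar at the group median. In every gene shown, the lowest MG library lies above the highest of the other 18, while libraries within EC, PC and AC differ widely.

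Reads on genes, estimated from the spacing of low values, were 11000000 to 15300000 in the MG libraries and 9100000 to 16300000 over all 24. Pearson's r across genes was 0.903 to 0.943 among the MG libraries (median 0.923) and 0.522 to 0.776 with other types. Within EC, PC and AC, the medians were 0.881, 0.88 and 0.897, with single pairs up to 0.965. EC replicate 2 and PC replicate 2 were the least like their own groups, with a mean r of 0.827 and 0.85. MG libraries held little RNA of the other types: the median of 14 endothelial markers was 0.106 to 1.55% of its EC level, that of 14 pericyte markers 0.167 to 2.23% of its PC level and that of 14 astrocyte markers 0.173 to 1.25% of its AC level. In the reverse direction, 25 homeostatic microglia genes had a median level, as a percent of the MG mean, of 1.83 to 5.45 in EC replicates 1 to 4 and of 0.131 to 0.156 in EC replicates 5 and 6. In PC, this level was 0.206 to 5.15 in replicates 1 to 4 and 0.0578 to 0.0585 in the last pair. In AC, it was 0.742 to 6.91 and 0.352 to 0.469. Microglial RNA in the other libraries thus differed by replicate number, and its part in the size of the differences was not tested. With replicates 5 and 6 alone, 1907 genes were higher and 1542 lower in MG than in all 3 other types, of which 1405 and 952 were among the genes called with all 6 replicates.

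**Figure D2:**
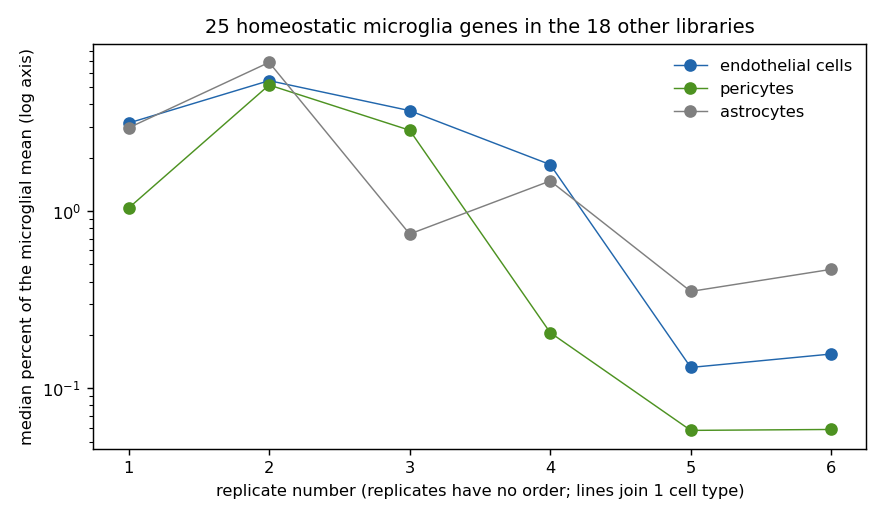
Median level of 25 homeostatic microglia genes in each EC, PC and AC library, as a percent of the MG mean (log axis), by replicate number. Replicate 2 is the highest in each cell type, between 5.15 and 6.91%, and replicates 5 and 6 are the lowest in each, below 0.5%.

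Genes were called different at an adjusted p of at most 0.05 and a change of at least 1.5-fold. Against EC, 3842 genes were higher in MG (22.0% of those tested) and 3124 lower (17.9%). Against PC, 4385 were higher (25.1%) and 3703 lower (21.2%). Against AC, 3344 were higher (19.1%) and 5572 lower (31.9%). The median log2 difference of all genes tested was 0.14 against EC, 0.08 against PC and -0.27 against AC. Whether a shift of all genes has a part in the lower genes against AC was not tested. Called in the same direction against all 3 types were 1813 genes higher in MG (10.4%) and 1207 lower (6.91%). In bulk libraries, fewer expressing cells and less RNA per cell cannot be told apart. Genes near the minimum contributed little: 286 genes had a largest group mean from 10 to under 11, of which 24 were called higher and 1 lower, and 320 genes from 9 to under 10 were left out.

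The genes higher than in all 3 types lay far from the others. Their median log2 difference to the nearest type was 2.64, or 2.4 when the 355 genes with a group at 0 in all its libraries are set at a bound of 3 reads. Of them, 1192 were at least 4-fold higher and 166 at least 64-fold higher than in the nearest type. In 1133, the lowest MG library lay above the highest of the 18 others, which 1220 of all genes tested did (6.98%). The nearest type was AC for 878 genes, EC for 636 and PC for 299. The genes lower than in all 3 types had a median of -2.22 to the nearest type, or -2.17 with 27 genes at their bound. Of these, 663 were at least 4-fold and 8 at least 64-fold lower. In 520, the highest MG library lay below the lowest of the 18 others, as in 537 of all genes tested (3.07%). Together, the higher genes took 41.2 to 42.6% of the normalized counts in each MG library and 4.08 to 7.83% in the others, while the lower genes took 2.13 to 2.69% in MG and 14.4 to 20.5% in the others.

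By length, the most abundant transcript in MG was Cst3, the secreted protease inhibitor cystatin C, at 309100 normalized counts per kilobase of exon. C1qb, a chain of the complement component C1q, followed at 154300, and Ctss, the lysosomal protease cathepsin S, at 107400. Among the 20 highest on this scale, 14 were higher in MG than in all 3 other types, including Ccl4, Ctsd, C1qc, C1qa, Tyrobp, Ctsz, Fcer1g, Ccl3, Csf1r and Tmem119. The exceptions were Tmsb4x, B2m, Nfkbia, Fos, mt-Nd1 and the small RNA gene Gm23935. An abundant transcript of MG was therefore not always one that set MG apart.

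Of the genes that did not overlap, the 20 with the largest difference to the nearest type included kinases, receptors and adaptors of signalling. B430306N03Rik led with 451, 539.0 and 853 normalized counts in MG and 0 to 38 elsewhere, and its log2 difference was 8.29 ± 0.81 for the nearest type, AC (adjusted p = 6.3e-09). Pik3cg, the catalytic subunit p110γ of the phosphoinositide 3-kinase that answers G protein-coupled receptors, had 1815, 2782.0 and 3539 against 0 to 163, with 8.18 ± 1.35 for AC. Pik3ap1, an adaptor of phosphoinositide 3-kinase signalling, had 1628, 1916.0 and 2987 against 0 to 182. All 3 were far above every other library.

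Several of the 20 were cell-surface receptors. Tnfrsf13b encodes TACI, a receptor for the B cell factors BAFF and APRIL, and was at 1247 to 1682 normalized counts in MG and 0 to 136 elsewhere (7.92 ± 1.33 for AC, adjusted p = 1.96e-05). Siglece, an inhibitory sialic acid receptor, was at 1497 to 2197 against 0 to 114. The platelet-activating factor receptor Ptafr (1365 to 2907 against 0 to 128), the cannabinoid receptor Cnr2 (217 to 616 against 0 to 102) and the adenosine receptor Adora3 (734 to 1442 against 0 to 86) had log2 differences of 7.44, 7.43 and 7.42 to their nearest types. The tetraspanin Cd37 was the most abundant of the 20 with 5344 to 7280 normalized counts, followed by Tlr7 with 4276 to 6098. Slamf8, a receptor of the SLAM family, had 284 to 443 in MG and 0 in all 6 EC libraries, which makes it at least 99.0-fold higher than in EC against a floor of 3 reads per library.

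Other members of the 20 were Psd4, 1810011H11Rik, AC160562.1, Rasal3, Abcc3, Nectin4, Ikzf1 and Arl11. Ikzf1 encodes IKAROS, a zinc finger factor of haematopoietic cells, and had 1643 to 2876 normalized counts in MG and 0 to 408 elsewhere. Abcc3, an export pump for organic anions, had 3042 to 4593 against 0 to 174. Nectin4, an adhesion molecule best known from epithelia, had 420 to 543 against 0 to 121. MG did not overlap with other libraries in any of the 20, by the rule that chose them. All 20 were called higher under each of 44 other settings of the analysis. Their choice by size of difference favoured this, so it adds no support.

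**Figure D3:**
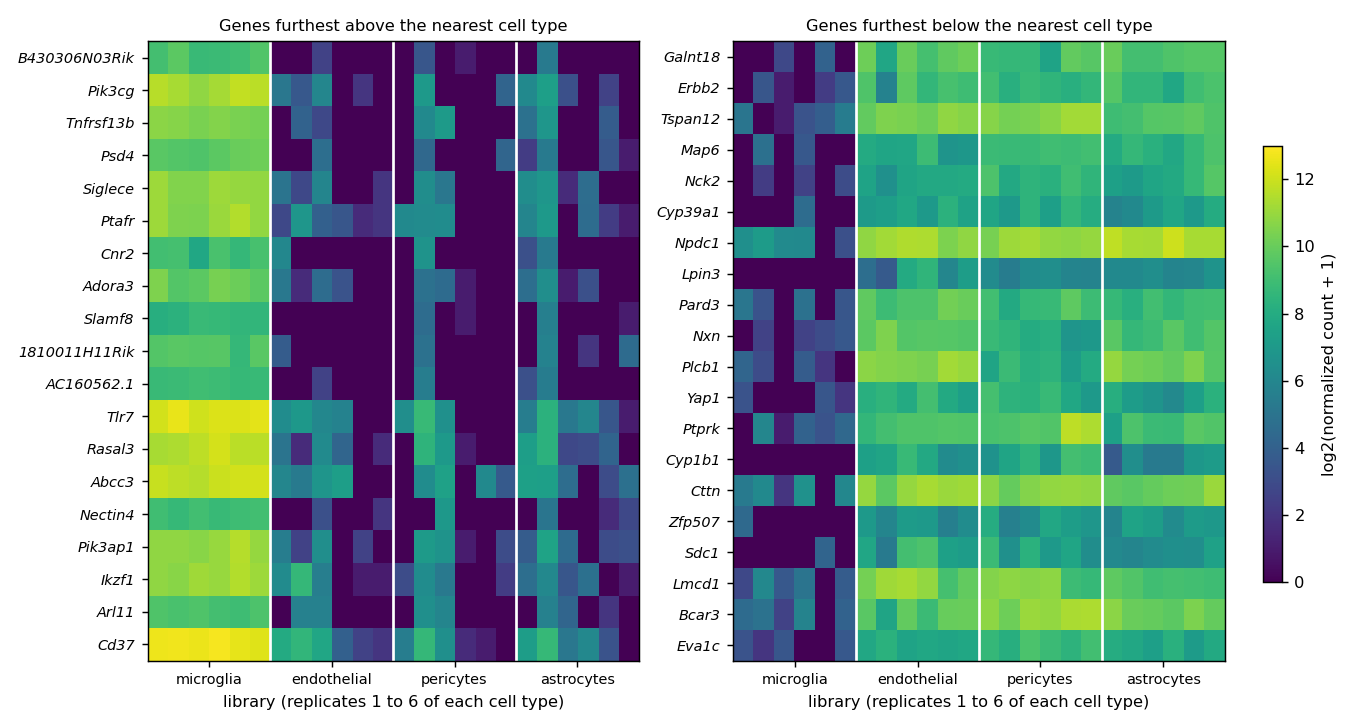
Heat map of log2(normalized count + 1) in the 24 contralateral libraries for genes furthest above (left, 19 of the 20) and the 20 furthest below (right) the nearest other cell type, with rows in the order of that difference. The other 18 libraries hold scattered low values of the left-hand genes, most of all replicate 2 of PC and of AC, and in the right-hand panel MG holds scattered low values.

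Promoters of these genes were searched for the letters GAGGAAGT on either strand, the core sequence bound by PU.1 in purine-rich sites. RefSeq promoters of 250 bases before and 50 after a transcript start were matched by gene to 1139 of the 1813 higher genes, 909 of the 1207 lower genes and 11999 of the 17470 genes tested. The letters stood in 7.34% of the 1458 promoters of higher genes, 2.96% of the 15351 promoters of all genes tested, 2.23% of the 1212 promoters of lower genes and 3.2% of all promoters of the table. The other letters searched were as follows. TGANTCA (AP-1) was in 6.31% of the promoters of higher genes and 5.43% of all tested, TGTGGTTT (RUNX) in 1.71% and 1.22%, TTGCGCAA (CEBP) in 0.412% and 0.287% (0.0825% of lower genes, or 1 promoter), and TATAAA in 8.98% and 7.71%. CATTCCA (TEAD) was in 3.22% of the promoters of lower genes and 3.08% of all tested, and GGGCGG (SP1) was in 52.1% of promoters of higher, 65.3% of lower and 58.5% of all genes tested. No test was made of these shares, and a match is a run of letters, not a site shown to be bound.

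**Figure D4:**
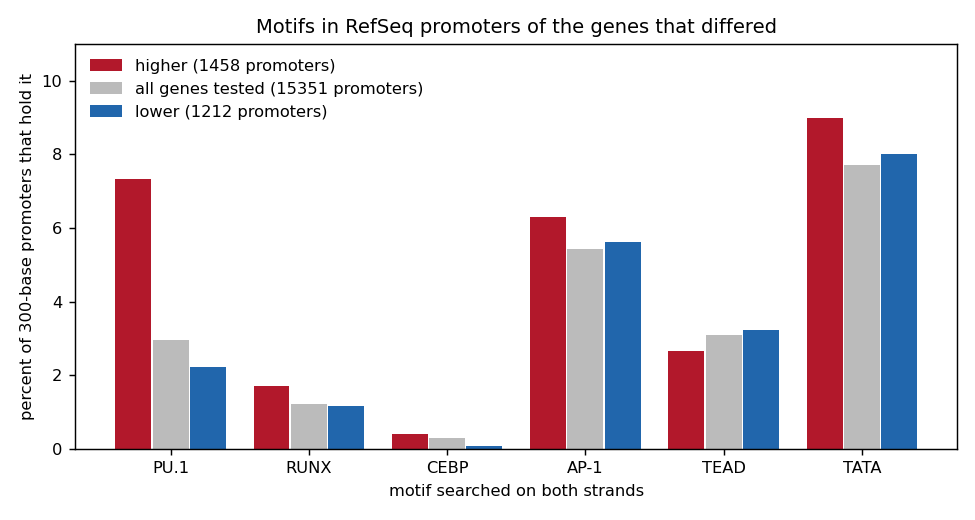
Percent of 300-base RefSeq promoters that hold each motif on either strand, for genes higher in MG than in all 3 other types (1458 promoters), all genes tested (15351) and genes lower in MG (1212). The PU.1 letters were in 7.34% of promoters of higher genes, 2.96% of all tested and 2.23% of lower genes.

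Of the 20 genes furthest above the other types, 15 had a RefSeq promoter and 4 held the PU.1 letters in the 250 bases before the start. These are printed from RefSeq (GRCm38.p6), 5′ to 3′ in the direction of transcription, because they show where these letters lie in leading genes of MG. Capitals mark GAGGAAGT or its reverse complement ACTTCCTC.
B430306N03Rik, plus strand, chr17:48315912-48316161: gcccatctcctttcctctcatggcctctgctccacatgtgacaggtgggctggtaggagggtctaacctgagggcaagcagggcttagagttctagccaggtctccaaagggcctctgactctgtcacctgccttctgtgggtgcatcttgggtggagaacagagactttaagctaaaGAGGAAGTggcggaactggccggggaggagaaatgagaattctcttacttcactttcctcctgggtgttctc
Pik3cg, minus strand, chr12:32208471-32208720: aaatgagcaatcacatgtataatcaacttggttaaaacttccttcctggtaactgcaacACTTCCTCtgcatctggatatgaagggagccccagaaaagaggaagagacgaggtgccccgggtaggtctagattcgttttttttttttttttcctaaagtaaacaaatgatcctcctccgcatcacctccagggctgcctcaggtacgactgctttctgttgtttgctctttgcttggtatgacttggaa
Adora3, plus strand, chr3:105904171-105904420: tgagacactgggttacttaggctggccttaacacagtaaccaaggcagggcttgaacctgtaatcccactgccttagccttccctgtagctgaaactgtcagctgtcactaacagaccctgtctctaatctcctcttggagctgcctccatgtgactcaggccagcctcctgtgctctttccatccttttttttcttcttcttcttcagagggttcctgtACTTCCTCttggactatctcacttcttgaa
Cd37, minus strand, chr7:45238840-45239089: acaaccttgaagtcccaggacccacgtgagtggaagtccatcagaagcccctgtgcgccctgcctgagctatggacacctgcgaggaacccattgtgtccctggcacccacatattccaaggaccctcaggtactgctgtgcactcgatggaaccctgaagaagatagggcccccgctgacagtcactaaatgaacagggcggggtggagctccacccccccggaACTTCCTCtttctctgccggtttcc
The letters ended 65 bases before the start in B430306N03Rik, 184 in Pik3cg, 23 in Adora3 and 18 in Cd37. The gene that encodes PU.1, Spi1, had 5186, 6178 and 6904 normalized counts in MG and 0 to 561 elsewhere.

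Genes of homeostatic microglia were higher in MG than in all 3 types in 23 of 25 cases, a share of 92.0% beside 10.4% of all genes tested. Their median log2 difference was 6.52 against EC, 7.97 against PC and 6.43 against AC. Tmem119, a surface protein that marks microglia, had 45990, 52744 and 61086 normalized counts and 32 to 2879 elsewhere. Csf1r, the receptor for the growth factors CSF1 and IL-34, had 112570, 139426 and 151572 against 0 to 9483, and Cx3cr1, the fractalkine receptor, 47248, 64048 and 85485 against 6 to 3772. The ADP receptor P2ry12 had 18947, 31289 and 36074 against 6 to 1547. Each stood above every other library. The 2 exceptions were shared with other types: Adgrg1, an adhesion receptor, averaged 7470 in MG, 9658 in EC and 14230 in AC, and Sparc, a matrix-binding secreted protein, 36040 in MG, 42180 in EC, 22710 in PC and 22890 in AC. Bin1 (1.01 ± 0.38 for AC, adjusted p = 0.0278) and Cst3 (1.52 ± 0.41 for AC) were the called members nearest to another type, and Bin1 lost its call in 9 of 44 other settings.

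Transcription factors of the myeloid lineage were higher in 14 of 20 cases (70.0%) and lower in none. Irf8 had 6537 to 10907 normalized counts in MG and 1 to 588 elsewhere and Irf5 6439 to 8177 against 21 to 513. Sall1, a zinc finger factor, was nearest to AC, where it averaged 551 beside 2498 in MG (2.19 ± 0.76, adjusted p = 0.0176). Factors that MG had in common with a neighbour were not called. Fli1 averaged 1824 in MG and 2678 in EC, Mef2c 6935 in MG and 5254 in PC, and Etv5 2008 in MG and 1632 in AC.

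**Figure D5:**
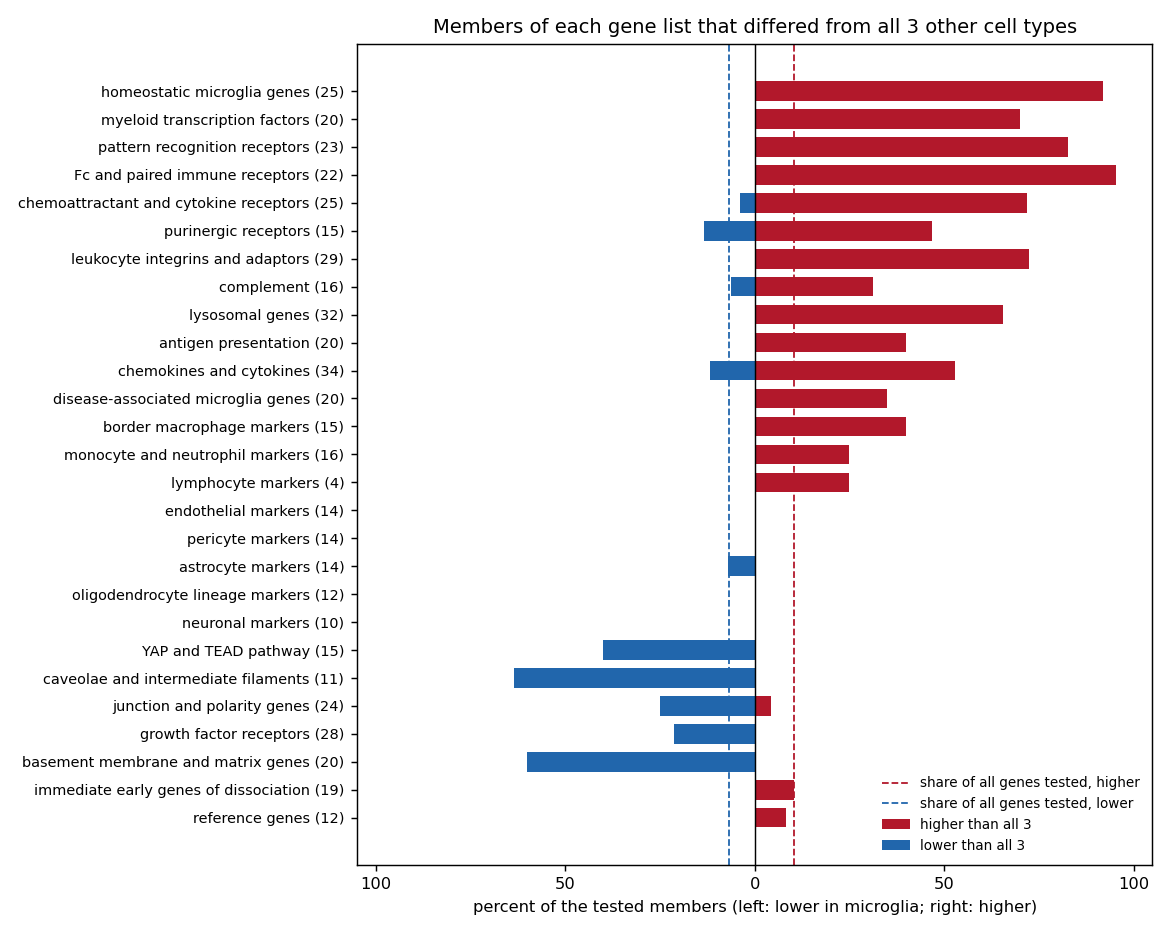
Percent of the tested members of each gene list that were higher (right) or lower (left) in MG than in all 3 other types, with the number tested in brackets, and dashed lines at the shares of all genes tested, 10.4% and 6.91%. Lists of Fc and paired receptors and of homeostatic genes extend furthest to the right and those of caveolae, matrix and YAP genes furthest to the left, while markers of EC and PC have no bar.

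Receptors that sense microbial and damage signals were higher in 19 of 23 cases (82.6%). Tlr7, which senses single-stranded RNA in endosomes, was among the 20 leading genes. Tlr13 had 3261 to 5662 normalized counts in MG and 0 to 380 elsewhere, Tlr2 4606 to 9313 against 4 to 732, and Cd14, the co-receptor for endotoxin, 21561 to 55889 against 47 to 9429. These 3 did not overlap. Tlr8 was listed at 0 in all 18 other libraries, but also reached only 0, 8.5 and 61 as its lowest, median and highest MG value. Tlr3, a sensor of double-stranded RNA, averaged 729.7 in MG and 1585 in AC, and Nod1 283.5 in MG and 1577 in EC; neither was higher in MG than in all 3. The adaptor Myd88 lay at the edge of a call against PC (0.59 ± 0.24) and lost it in 26 of 44 settings.

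Fc and paired immune receptors were higher in 21 of 22 cases (95.5%), with a median log2 difference of 6.56 against EC, 8.73 against PC and 6.55 against AC. Fcgr3, a receptor for immunoglobulin G, had 26780 to 38531 normalized counts in MG and 0 to 5453 elsewhere. Trem2, a lipid-sensing receptor, had 14358 to 17382 against 0 to 1165, and its signalling partner Tyrobp 16020 to 25269 against 0 to 5533. All 3 were above every other library. Sirpa, the receptor for CD47, was the exception, because its AC mean of 8220 beside 24170 in MG gave a log2 difference of 1.58 ± 0.69 (adjusted p = 0.0568), although its MG libraries lay above all others.

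Receptors for chemoattractants and cytokines were higher in 18 of 25 cases (72.0%) and lower in 1. The anaphylatoxin receptor C5ar1 had 13906 to 18396 normalized counts and 0 to 1145 elsewhere, and C3ar1 9732 to 13500 against 0 to 766. Il10ra, the ligand-binding chain of the interleukin-10 receptor, had 7867 to 13042 against 0 to 882. Its partner chain Il10rb was shared with EC, at 2238 in MG and 1967 in EC. The 2 receptors for interleukin-1 went in opposite directions: the decoy receptor Il1r2 averaged 498 in MG and 36.5 to 44.3 over the other 3 types, and the signalling receptor Il1r1 averaged 39.83 in MG against 1167 in EC, 1311 in PC and 130 in AC (-1.8 ± 0.4 for AC, adjusted p = 0.000452). The log2 difference of Il1r2 was 5.31 ± 1.46 for EC and 4.82 ± 1.46 for AC, and its libraries overlapped with those of other types. Ccr2, the chemokine receptor of blood monocytes, was called higher at a low level of 31 to 110 in MG and 0 to 57 elsewhere.

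Purinergic receptors divided by member rather than as a family, with 7 of 15 higher (46.7%) and 2 lower (13.3%). Higher were P2ry12, P2ry13, P2ry6, Adora3, P2rx7, P2rx4 and the ATP-degrading ectoenzyme Entpd1. P2ry6, a receptor for UDP, had 3702 to 6274 normalized counts and 2 to 234 elsewhere, and P2rx4, an ATP-gated channel, 1064 to 1561 against 141 to 777. P2ry1, another ADP receptor, averaged 3.167 in MG, with means of 64.7 to 381 in the other types, and the adenosine receptor Adora2a 1.833 in MG, with means of 35.8 to 596 in the others. Adora1 (3204 in AC), Adora2b (1809 in AC), P2ry14 (2162 in PC) and P2rx1 (1519 in PC) had their highest mean in another type and were not called lower against all 3.

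Leukocyte integrins and the adaptors of leukocyte motility were higher in 21 of 29 cases (72.4%), a count that includes the gate gene Itgam. Itgb2, the β chain that pairs with CD11b, had 6962 to 8018 normalized counts in MG and 0 to 541 elsewhere. Nckap1l, the haematopoietic subunit of the WAVE complex, had 5403 to 6395 against 0 to 346, and the guanine exchange factor Vav1 5385 to 7516 against 0 to 412. None of these overlapped. Of the integrin chains found beyond leukocytes, Itgb5 was higher, with 4521 to 21423 normalized counts against 22 to 2502, while Itgb1 and Itgav were not higher than in all 3. Itgb1 averaged 4257 in MG and 34230 in PC, and Itgav 1152 in MG and 2579 in AC. The kinases Syk, with a mean of 1976, Btk, with 1145, and Lyn, with 8411, were each higher than in all 3 types.

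Complement genes were higher in 5 of 16 cases (31.2%), which were the 3 chains of C1q and the 2 chains of complement receptor 3. Of the latter, Itgam was fixed by the sort gate. C1qa had 49499, 54675 and 61579 normalized counts in MG and 0 to 3744 elsewhere, and C1qc 98692, 113548 and 121725 against 3 to 14491. C1qb had 154173, 165794 and 191007 against 3 to 22331. The C1q chains kept a similar distance to each type, with log2 differences of 6.51 to 6.8 for EC, 8.98 to 9.18 for PC and 6.47 to 6.67 for AC. The proteases that C1q engages had their highest mean in PC, where C1s1 averaged 2518 beside 10.5 in MG, and C1ra 749 beside 29.5. C3 (50.67 in MG, 782 in AC) and C4b (342.2 in MG, 2686 in AC) were higher in AC. Cd59a, which blocks the terminal complex, was the 1 lower member, with 22 to 84 normalized counts in MG and 44 to 12806 elsewhere.

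Lysosomal genes were higher in 21 of 32 cases (65.6%) and lower in none, by smaller steps than the immune receptors: their median log2 difference was 3.04 against EC, 3.01 against PC and 2.26 against AC. Ctsd had 152237 to 174439 normalized counts in MG and 4054 to 21765 elsewhere, and Ctsb 69765 to 74200 against 5253 to 23691. Lgmn, an asparagine-specific protease, had 39288 to 58171 against 511 to 4970. MG were above every other library in these 3. Members with a log2 difference above 5 to each type included Ctss, Cd68, Ctse and Laptm5. Housekeeping parts of the organelle were shared, above all with AC: Lamp1 averaged 9263 in MG and 15850 in AC, Tpp1 6966 and 7100, Npc1 2391 and 4610, and Cd63 10350 and 10160.

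Antigen presentation genes were higher in 8 of 20 cases (40.0%). Of the class II pathway, Cd74, the invariant chain, was higher with 1793 to 4293 normalized counts against 3 to 635 and H2-DMa with 4423 to 6002 against 17 to 805. The class II chain H2-Aa (144 to 404 against 0 to 462) and Ciita, the class II transactivator (0 to 16 in MG), were not called. H2-Eb1 (69 to 324 against 0 to 258) overlapped and lost its call in 14 of 44 settings. Cd86, a costimulatory ligand, had 6224 to 7431 against 0 to 607. The class I pathway was shared with EC: B2m averaged 32360 in MG and 27520 in EC, H2-K1 7837 and 9841, and H2-D1 15730 and 30680. H2 genes are near-identical in sequence, and the study left out reads that aligned to several regions. Counts of these genes can therefore be too low, by an amount that was not tested.

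Chemokines and cytokines were higher in 18 of 34 cases (52.9%) and lower in 4 (11.8%), with a median log2 difference of 3.97 against EC, or 3.77 with genes at their bound, 4.32 or 3.93 against PC and 4.12 against AC. Ccl4 had 18096, 51150.5 and 87013 normalized counts and 0 to 19852 elsewhere, and Ccl3 7989, 19194.5 and 30694 against 0 to 9575. For both, the highest value elsewhere lay above the lowest in MG. Tnf had 3221 to 22900 against 0 to 1269, Il1a 7451 to 34262 against 0 to 2412, and Il1b 3015 to 13451 against 1 to 1062, and these 3 did not overlap. Of the ligands of microglial receptors, Cx3cl1, which binds CX3CR1, averaged 39.67 in MG and 3008 in EC. For CSF1R, the ligand Il34 averaged 14 in MG and 2005 in PC, and the ligand Csf1 averaged 1983 in MG and 1231 in AC and was not called against all 3. Cx3cl1 was lower than in all 3 types (-4.54 ± 0.88 for PC, adjusted p = 0.000123), and so were Cxcl12, Tgfb2 and Pdgfa, while Il34 was not called against EC. Among the transforming growth factors β, Tgfb1 was higher (317.7 in MG, 78 in EC), Tgfb2 lower (40.33 in MG, means of 701 to 1853 elsewhere), and Tgfb3 highest in PC (8877).

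Immediate early genes, which respond to tissue dissociation among other stimuli, were higher than in all 3 types in 2 of 19 cases (10.5%, near the 10.4% of all genes), Nfkbiz and Dusp1. Their summed level was 275118 to 720689 normalized counts in MG, 136703 to 364146 in EC, 318476 to 598383 in PC and 16550 to 72578 in AC. The ranges of MG and AC did not overlap, and the part of handling in this difference was not tested. Fos averaged 74080 in MG, 56430 in EC, 164300 in PC and 9484 in AC. The part of this response in the levels of Ccl3, Ccl4, Tnf, Il1a and Il1b was not tested. Dusp1 lost its call in 17 of 44 settings.

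Of genes that rise in disease-associated microglia, 7 of 20 were higher than in all 3 types (35.0%): Cst7, Itgax, Clec7a, Ctsd, Ctsb, Ccl6 and Lyz2. Cst7 had 218 to 365 normalized counts and 0 to 49 elsewhere. The other 13 were not called against all 3, some because another type was higher and some because it was close to MG. Apoe, the lipid carrier, averaged 23440 in MG and 243800 in AC, and Axl 461 in MG and 12080 in PC. Spp1, which encodes osteopontin, had 2594, 4368 and 9637 in MG and did not differ detectably from PC (0.02 ± 0.69, mean of 4806), and Lpl averaged 1319 in MG and 1133 in PC.

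Markers of other leukocytes were checked because CD11b is not exclusive to microglia. The 15 markers of border macrophages summed to 5865 to 10008 normalized counts in MG, of which Stab1 gave 4303 to 7854, beside 1095189 to 1349080 for the 25 homeostatic genes. They summed to 1470 to 4360 in the other types, and 6 of 15 were higher in MG than in all 3 (40.0%, beside 10.4% of all genes). Of these 6, Cd209f lost its call in 21 of 44 other settings, Ms4a7 and F13a1 in 16 each, and Mrc1 and Siglec1 in 1, with replicates 1 to 4 alone. Mrc1 had 89 to 497, F13a1 136 to 788 and Lyve1 23 to 224 in MG. Markers of monocytes and neutrophils summed to 7147 to 8906 in MG and were higher in 4 of 16 cases, and the neutrophil gene Ly6g was at 0 in all 6 MG libraries. S100a8 had 20, 160 and 534 in MG and 0 to 887 elsewhere, so it overlapped throughout. Of 12 lymphocyte markers, 6 were at 0 in all MG libraries (among them Cd3g, Ms4a1, Nkg7, Gzmb and Il2rb), whereas Cd79b, a chain of the B cell receptor, had 369 to 583 against 0 to 93. Cd79b was called higher (5.12 ± 1.05 for AC, adjusted p = 0.000216), and its partner Cd79a was at 0 to 16 in MG. The part of these cells in the higher genes was not tested.

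Markers of the remaining brain cells were low in MG. None of the 14 endothelial or 14 pericyte markers was higher than in any other type, and the median log2 difference was -7.49 for endothelial markers against EC, -5.98 for pericyte markers against PC and -7.31 for astrocyte markers against AC. Slc1a3, a glutamate transporter of AC, was the astrocyte marker with the highest MG value, at 2500 to 3285 normalized counts beside 8 to 78661 elsewhere, and it was higher in MG than in EC (4.21 ± 0.85) and PC (4.63 ± 0.85). Oligodendrocyte markers summed to 1920 to 11378 in MG and to 52423 to 420526 in AC, so the AC libraries held oligodendrocyte RNA, and a gene lower in MG than in AC can include it. Neuronal markers summed to 77 to 268 in MG, and none of these 10 or of the 12 oligodendrocyte markers was higher or lower than in all 3 types. Of 12 reference genes, 1 was higher than in all 3 (8.33%, beside 10.4% of all genes) and none lower.

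Several classes of genes other than protein-coding ones held a larger share of higher genes. Higher in MG were 153 of 703 genes of the annotation's TEC class, which await experimental evidence (21.8%), 95 of 623 lincRNAs (15.2%) and 84 of 569 antisense RNAs (14.8%), beside 1350 of 14539 protein-coding genes (9.29%). Processed transcripts were higher in 33 of 289 cases (11.4%) and processed pseudogenes in 34 of 394 (8.63%). Among lower genes, 1163 of 1207 were protein-coding (96.4%), beside 14539 of the 17470 genes tested. The library kit does not keep the strand, so the strand a read came from is not known. The study left out reads that overlapped several genes, so reads in exons shared with an antisense partner were not counted. Whether the reads counted for an antisense gene came from its partner cannot be told. Of the 84 higher antisense RNAs, 43 overlapped a higher protein-coding gene (51.2%), as did 21 of 476 antisense RNAs called in neither direction (4.41%). For TEC genes, these were 48 of 153 (31.4%) and 18 of 545 (3.3%). AC117245.5, with 100 to 519 normalized counts in MG and 0 in all EC and PC libraries (at least 69.0-fold above EC), lies within Cx3cr1 on the opposite strand, and Gm44860 overlaps the higher gene E230029C05Rik.

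Other leading genes of this kind overlapped no gene that was tested. The lincRNA AC160562.1 (chr9:61032212-61059116) had 420, 452.5 and 511 normalized counts in MG and 0 to 44 elsewhere, and AC165247.1 (chr13:41865915-41913092) 1198, 1346.5 and 1619 against 0 to 432. Ighd, the constant region of immunoglobulin D, had 116 to 195 in MG, 0 in all PC and AC libraries and at most 5 in EC. It was at least 44.4-fold above AC.

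A pair of microRNA host genes were among the higher genes. Mir142hg (chr11:87755577-87757270), the host of a microRNA of haematopoietic cells, had 138, 226.5 and 291 normalized counts in MG and 0 to 12 elsewhere (6.39 ± 0.72 for AC, adjusted p = 5.92e-08). Mir155hg (chr16:84703167-84715245), the host of the inflammatory miR-155, had 3, 28.0 and 85 against 0 to 8, and its lowest MG library overlapped with the others. Only host transcripts were measured, not mature miRNAs. The mature sequences they carry are printed from RefSeq (GRCm38.p6, plus strand of chromosomes 11 and 16) to show that the 4 have different seeds, bases 2 to 8 in capitals.
mmu-miR-142a-5p, chr11:87756867-87756887: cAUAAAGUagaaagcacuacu
mmu-miR-142a-3p, chr11:87756903-87756925: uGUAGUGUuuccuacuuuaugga
mmu-miR-155-5p, chr16:84714143-84714165: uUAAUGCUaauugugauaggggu
mmu-miR-155-3p, chr16:84714182-84714202: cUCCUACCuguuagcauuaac

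Genes low in MG were led by enzymes and signalling proteins that EC, PC and AC have in common. Galnt18, which starts O-linked sugar chains, had 0, 0.0 and 16 normalized counts in MG and 188 to 1140 in the other 18 libraries (-7.7 ± 0.62 for PC, adjusted p = 2.3e-10). Erbb2, the co-receptor of the epidermal growth factor family, had 0, 2.5 and 11 against 54 to 883 (-6.83 ± 0.64 for PC). Tspan12, a tetraspanin of Norrin signalling, had 0, 11.5 and 43 against 496 to 2348 (-6.3 ± 0.61 for AC). The highest MG library was below the lowest of the others in each, by the rule that chose them. Lpin3, a phosphatidate phosphatase, and Cyp1b1, a cytochrome P450, were listed at 0 in all 6 MG libraries. Against a floor of 3 reads per library, Lpin3 was at least 18.7-fold lower in MG than in PC, its nearest type by this bound, and at least 40.6-fold lower than in EC. Cyp1b1 was at least 20.4-fold lower than in AC, its nearest, and at least 85.2-fold lower than in PC.

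The remaining members of the 20 lowest were Map6, Nck2, Cyp39a1, Npdc1, Pard3, Nxn, Plcb1, Yap1, Ptprk, Cttn, Zfp507, Sdc1, Lmcd1, Bcar3 and Eva1c. Several act on the cytoskeleton or on adhesion. Cttn, the actin-binding protein cortactin, had 0, 52.0 and 95 normalized counts against 810 to 2475. Nck2, an adaptor to the actin machinery, had 0, 2.0 and 7 against 90 to 752. Plcb1, a phospholipase C, had 0, 5.0 and 18 against 145 to 2344 and was lowest relative to EC (-8.54 ± 0.56). These 20 genes were called lower under each of 44 other settings, which their choice by size of difference favoured, so it adds no support.

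Yap1, a coactivator that responds to cell contact and stretch, led a group of related genes. It had 0, 1.5 and 10 normalized counts in MG against 68 to 566 (-5.84 ± 0.61 for AC, adjusted p = 1.7e-08). Its paralog Wwtr1 (TAZ) had 34, 54 and 145 against 367 to 4433. Of 15 tested members of the YAP and TEAD pathway, 6 were lower than in all 3 types (40.0%, beside 6.91% of all genes) and none higher: Yap1, Wwtr1, the DNA-binding partner Tead1, the target Cyr61 and the angiomotins Amotl1 and Amotl2. The target Ctgf averaged 109.3 in MG and 199 in AC and was not called against AC (-0.54 ± 0.58), and the upstream kinase Lats1 (195 in MG, means of 113 to 222 elsewhere) and Nf2 (471.3 in MG, means of 508 to 931 elsewhere) were called against none.

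Genes of caveolae and intermediate filaments were lower in 7 of 11 cases (63.6%). Cavin3, a coat protein of caveolae, had 24, 76.5 and 102 normalized counts in MG and 1228 to 12009 elsewhere, and Vim, the filament protein vimentin, had 142, 402.5 and 673 against 1457 to 57802. Both groups were apart. Cav1 averaged 85.33 in MG, 6500 in EC, 11830 in PC and 166 in AC, and its call against AC (-1.84 ± 0.77) was lost in 29 of 44 settings. Pacsin2, a membrane-bending protein, was the member shared with PC, at 2549 in MG and 3921 in PC.

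Basement membrane and matrix genes were lower in 12 of 20 cases (60.0%), with a median log2 difference of -4.62 against EC, -6.59 against PC and -2.91 against AC. Lamb2, a laminin chain, had 61, 249 and 442 normalized counts against 1015 to 39927, and Agrn, the proteoglycan agrin, had 69, 98.5 and 185 against 636 to 3120. Sparcl1, a secreted relative of SPARC, had 627, 925 and 1246 against 10110 to 101951. MG were below every other library in these. Collagen IV was also lower, with Col4a1 averaging 157 in MG, 10580 in EC, 17400 in PC and 1142 in AC, and its libraries overlapped slightly with AC. Nid2 (394.3 in MG, 138 in AC) and Fn1 (527.8 in MG, 292 in AC) were above AC.

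Junction and polarity genes were lower in 6 of 24 cases and higher in 1. The adherens junction protein Ctnna1 had 667 to 1030 normalized counts against 1776 to 7907, and the polarity protein Pard3 0 to 33 against 239 to 1222. F11r (JAM-A) was the higher member with 7889 to 12421 against 90 to 5413 (1.25 ± 0.41 for EC, adjusted p = 0.0163). Growth factor receptors were lower in 6 of 28 cases (21.4%, beside 6.91% of all genes): Erbb2, Fgfr1, Ephb4, Notch1, Fzd1 and Fzd4. Fgfr1 averaged 38 in MG, 234 in EC, 3078 in PC and 3424 in AC.

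Genes that MG had in common with a single neighbour were counted as higher than in the other 2 types and not called against that one. There were 837 with AC, 520 with EC and 248 with PC. With AC, the pH regulator Slc9a9 averaged 2704 in MG and 611.7 in AC, and Sall3 1271 and 867.7, beside means of 21 to 81.8 for both genes in EC and PC. With EC, Tnfrsf1b, a receptor for TNF, averaged 5116 in MG and 968.5 in EC, and the homeobox gene Hhex 995.0 and 709.3. With PC, the channel Trpv2 averaged 1532 in MG and 3127 in PC, and Il6 309.8 and 229.7. A gene not called is not shown to be equal: the difference of Tnfrsf1b to EC was 2.5 ± 1.01 (adjusted p = 0.0515), and that of Hhex was 0.55 ± 0.99. In the other direction, 969 genes were low in MG and EC alike, 523 in MG and AC, and 422 in MG and PC.

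Some of the higher genes varied widely among the MG libraries themselves. Of those with a mean of 100 or more, 1233 in number, the median SD of log2 values was 0.29. Only the protein-coding genes among them were ranked by this SD. Of these, Il12b, a subunit of interleukin-12, had the largest at 2.24. It had 7, 119, 275, 662, 284 and 64 normalized counts in replicates 1 to 6. Snx20 followed at 1.42 with 126 to 1203 and Nlrp1b at 1.35 with 20 to 230. The homeostatic genes were steadier, with a median SD of 0.17, and so were lysosomal genes at 0.15, while chemokines and cytokines were at 0.51.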

How the data were processed

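RNA of sorted MG, EC, PC and AC was amplified from about 250 pg with SMART-Seq HT, an unstranded kit, and sequenced as single reads of 75 bases. Per the labels, the authors trimmed reads with Trimmomatic 0.38, aligned them with STAR 2.6.1d to GRCm38 (mm10), counted them on genes with featureCounts 1.6.3 and normalized with DESeq2 1.18.1. The deposited values are DESeq2-normalized counts that the authors rounded to integers, so they were treated as a score, not as raw counts, and no count model was run. Preparations of several mice are the replicates.

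From the 24 contralateral libraries, limma 3.58.1 (R 4.3.3, trend) was fitted to log2(value + 1) with one mean per cell type and 3 two-sided contrasts, adjusted by Benjamini-Hochberg over 17470 genes. Calls required an adjusted p of at most 0.05 and 1.5-fold. The fit was tested on simulated data. Python 3.11.15 with pandas 2.3.3, numpy 2.4.6 and matplotlib 3.10.9 made summaries and plots. Precision was limited by 11000000 to 15300000 reads per MG library, where 3 reads equal at most 3.52 normalized counts (4.02 over all 24), counting error only.

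Members and gene lists were chosen with earlier results of these data known. The genes named were the 20 furthest above and the 20 furthest below the nearest type among genes that did not overlap, 5 shared with each other type, 5 of a biotype other than protein-coding (which took in the immunoglobulin gene Ighd), and members of the lists. Genes of the most variable, the most abundant and the miRNA hosts were added with values seen, as was E230029C05Rik. Alternatives were the pseudocounts 0.1 and 10, other filters on low values, 2 rescalings, separate fits of each pair of cell types, the replicate block, folds of 2 and 4, subsets of replicates and leaving out each library or number. Columns of the 24 ipsilateral libraries were not used here, 12 of which have labels that leave their group unclear. Results of some genes are not reported here.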

Additional observations from a re-analysis of the deposited data

Results flagged for a closer look

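Of 83 groups of 6 values examined, 14 held 1 sample set apart from the other 5 by Dixon's test, where chance flags about 1 in 20 groups. In MG replicate 5, 1810011H11Rik was low at 406 normalized counts (746 to 827 in the other 5), Pik3ap1 was high at 2987 (1628 to 2008), Sdc1 was at 17 (0 in the others), and reads on genes were the most at 15300000 (11000000 to 12400000 in the others). Aif1 was low at 3431 in MG replicate 6 (4643 to 4784). Scattered single values of low genes were flagged too, with Cyp39a1 at 23 in MG replicate 4 (0 in the others), Zfp507 at 21 in MG replicate 1 (0 in the others) and Ptprk at 61 in MG replicate 2 (0 to 20).

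The remaining flags fell on replicate 2 of other cell types. Cd68 was at 2637 in EC replicate 2 (35 to 821 in the other 5) and at 1656 in PC replicate 2 (17 to 452), and Aif1 was at 1446 in EC replicate 2 (6 to 171). Ptprc was at 236 (5 to 89) and Itgam at 108 (3 to 41) in AC replicate 2. Normalized counts of EC replicate 2 summed to 15633875 (10936238 to 11611632 in the others). Microglial RNA was highest in replicate 2 of each type, and its part in these values was not tested. Without EC replicate 2 and PC replicate 2, an alternative chosen after seeing the data, 1936 genes were higher and 1315 lower in MG than in all 3, with 1747 and 1139 shared with the full set.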

How the results depend on the processing

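Across 44 other settings, no gene called in one direction against all 3 types was called in the other. Requiring 4-fold left 1192 higher and 663 lower genes, 2488 higher and 1902 lower against EC, 2359 lower against PC and 1950 higher against AC; these were the only counts that moved by over 1.5 times, by construction. The paper isolated all 4 cell types together from the same pooled tissue, so libraries of different types can share mice. The sources used here do not say whether a replicate number marks the same pool in each type. Deviations of MG libraries from their group mean correlated with those of same-numbered libraries by a mean of 0.05 in EC (0.0 to 0.13), 0.04 in PC (-0.05 to 0.12) and 0.07 in AC (0.01 to 0.21), against -0.01 for other numbers. Of 6 MG libraries, 2 correlated best with their own number in EC, 1 in PC and 3 in AC. These values cannot exclude shared pools. The main fit used no pairing because the study's methods state no block. With the replicate number as a block, 1875 were higher and 1247 lower, and the block moved no count by over 1.5 times. Among named genes it ended the call of Myd88 (0.59) and called Tnfrsf1b (2.5), Npl (2.44), Sirpa (1.58), Psap (0.74), H2-Aa (2.77), Chil3 (3.68), Jun (0.75), Zfp36 (1.02), Nt5e (-2.93) and Cavin1 (-1.29), given as the log2 difference to the nearest type, and it changed no other call. Leaving out 1 library gave 1632 to 1918 higher and 1122 to 1344 lower genes, and leaving out all 4 libraries of 1 number 1504 to 1886 and 996 to 1247. Replicates 1 to 4 alone gave 1221 and 814. Pseudocounts of 0.1 and 10 gave 1596 and 2052 higher genes, no filter on low values 2114, and a mean of 50 or more 1392; the 2 rescalings gave a median of all genes against EC of 0.09 and 0.15, beside 0.14. Of the named genes, 151 of 199 higher and 42 of 62 lower kept their call in every setting. Calls lost most often were those of Cav1 (29 settings), Myd88 (26), Cd209f (21), Dusp1 (17), and Ms4a7 and F13a1 (16 each). The cause of these losses was not tested. Genes of low level in MG, at a few reads per library, rest on counting error most.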

Other observations

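Gene families taken by symbol, with results known, added groups beside the lists. Cathepsins were higher in MG than in all 3 types in 8 of 13 cases (61.5%) and lower in none, beside 9.29% and 8.0% of protein-coding genes. The S100 calcium-binding proteins went the other way, with 5 of 10 lower, namely S100a6, S100a16, S100a1, S100a11 and S100a10. Cadherins and protocadherins were lower in 13 of 73 cases (17.8%), among them Pcdh1, Pcdh7 and Pcdh19, and Cdh23 was the 1 higher member. Of 11 DOCK exchange factors, Dock2 and Dock8 were higher (18.2%) and Dock1 and Dock6 lower (18.2%). Receptor tyrosine phosphatases had 4 of 18 higher (22.2%; Ptpro, Ptpre, Ptprj and the gate gene Ptprc) and 3 lower (16.7%; Ptprk, Ptpru and Ptprg).

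Of 79 cytosolic ribosomal proteins, Rpl12 alone was higher and none was lower, although their median log2 difference was 1.39 against AC. Of 49 proteasome subunits none was called, with medians of -0.43 against EC, -0.18 against PC and -0.05 against AC. Zinc finger proteins were higher in 23 (6.35%) and lower in 15 (4.14%) of 362 cases. Solute carriers were higher in 32 of 280 (11.4%) and lower in 18 (6.43%), near the 9.29% and 8.0% of protein-coding genes. Slc2a5, Slc15a3, Slc17a9 and Slc7a8 led the higher solute carriers.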
